A study of Mus musculus with 64 samples.

Results

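A set of 10 genes of the motile cilium is described here in RNA of microglia, the immune cells of the brain, isolated from 2 brain regions of mice. They are Drc7, Foxj1, Ccdc153, Tmem212, Rsph1, Dynlrb2, Hydin, Dnah9, Cfap43 and Spag17, 10 of the 49671 genes in the count table, and each was found there by its Ensembl identifier. The set was chosen on measured values, because Drc7 had been seen to fall in hippocampal libraries labelled day. The comparison of day with night in the hippocampus is therefore given for these genes as a description, with no p-value, and nothing is read from how many of them passed a threshold in it. Ttr, the transthyretin gene and the classical marker of choroid plexus epithelium, was followed beside them library by library.

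A motile cilium is a beating hair on the cell surface, built on an axoneme of microtubules that are slid against each other by dynein motors. In the brain such cilia are carried by ependymal cells, which line the ventricles and move cerebrospinal fluid, and epithelial cells of the choroid plexus also bear cilia. Microglia do not carry motile cilia. Foxj1 is the forkhead transcription factor that switches on the genes of motile cilia, and factors of the RFX family act with it at many of their promoters.

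The study compared light and dark phases, each sampled at a single time point. It used C57BL/6 mice (C57BL6/N in the study's methods) kept under a reversed light-dark cycle. The animals were adult males and were perfused before the brain was dissected. Microglia were taken with magnetic beads against CD11b after cold mechanical dissociation and a density gradient, so other cells or their fragments can remain in the preparation. The 64 libraries came from the Hippocampus or the Frontal_cortex, carried the label Day or Night and one of 4 condition labels, Soci, Cogn, Ctr0 or Ctr1, and had replicate numbers 1 to 4, which gave 16 groups of 4. The labels explain neither the condition names nor which light phase Day stands for. Nothing says whether replicates were single animals or pools, or whether both regions came from the same mice. The p-values therefore measure the spread between these libraries. Mice of all groups had the same strain and sex, and no transgene or gene deletion is named for any group.

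Libraries held between 10.2 M and 84.5 M counts (M, 1000000). Loci that hold ribosomal RNA reads took 30.3% to 60.9% of the counts of a library, so fewer counts were left for other genes. Levels are given as CPM, a gene's counts per 1000000 counts of the library on 1 scale that was set over the 64 libraries. Microglial identity was plain in each library, where 8 marker genes summed to between 10670 and 23060 CPM. The choroid plexus list of 18 genes was far more variable, with medians of 1797 CPM in hippocampal night, 292 CPM in hippocampal day, 99.3 CPM in frontal cortex night and 26.5 CPM in frontal cortex day libraries. Libraries that stood apart were Hippocampus Night Ctr0 replicate 4, with a Ttr level of 7.84 CPM against at least 597 CPM in the other 15 night libraries of that region, Hippocampus Day Ctr0 replicate 2 with 0.675 CPM, and Frontal cortex Day Cogn replicate 4, Soci replicate 4 and Ctr1 replicate 1, with 408, 328 and 165 CPM against at most 27.7 CPM in the other 13 day libraries of that region.

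The label "ependymal" was checked against its markers. The members Ccdc153 and Tmem212, which mark ependymal cells in single-cell atlases, stayed at or near 0: Ccdc153 had 63 counts in the 16 hippocampal night libraries together and 1 count in the 16 frontal cortex night libraries, and Tmem212 had 30 and 3. Of 15 further ependymal markers, only Sntn, a protein of the ciliary tip, had a median of 0 counts per library in hippocampal night, and 5, 6 and 7 of the 15 did in hippocampal day, frontal cortex night and frontal cortex day. Others were detected in hippocampal night, with median counts of 44.5 for Tppp3, 23.5 for Ak7, 18.5 for Pifo and 16.5 for Cdhr4. The summed level of those 15 genes ran from 4.41 to 14.4 CPM in hippocampal night libraries and from 2.63 to 5.01 CPM in frontal cortex day libraries. The genes are called motile cilia genes below, by function and not by cell type. In bulk RNA, fewer cells of a type and less RNA per cell cannot be told apart.

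The upstream sequence was read for members because 8 of the 10 are matched in the RefSeq promoter table for build GRCm38.p6, which gives 250 bases before and 50 bases after each gene's start. Promoters of Foxj1 and Rsph1 were not matched. Motifs of the known regulators were searched on both strands, the RFX half-site GTTGCC and the forkhead core GTAAACA. The half-site was in 3 of the 8 member promoters, in 39 of 90 promoters of a wider list of motile cilia genes (43.3%), in 5 of 19 promoters of the choroid plexus list (26.3%) and in 4111 of all 32851 promoters (12.5%). The forkhead core was in 1 of the 8, that of Cfap43, and in 3.65% of all promoters. A pair of facing half-sites, GTTNCC and GGNAAC up to 3 bases apart, was in none of the 8, in 5.56% of the wider list and in 0.804% of all promoters. Promoters are shown here, of the 3 members with a half-site and of Drc7, the gene on which the set was chosen and which had none. Capitals mark the half-site on the strand shown (GGCAAC is GTTGCC on the other strand). The Drc7 promoter lies on the plus strand at chr8:95054853-95055152, that of Ccdc153 on the plus strand at chr9:44240427-44240726, that of Dynlrb2 on the plus strand at chr8:116504765-116505064 and that of Hydin on the plus strand at chr8:110266727-110267026.
Drc7: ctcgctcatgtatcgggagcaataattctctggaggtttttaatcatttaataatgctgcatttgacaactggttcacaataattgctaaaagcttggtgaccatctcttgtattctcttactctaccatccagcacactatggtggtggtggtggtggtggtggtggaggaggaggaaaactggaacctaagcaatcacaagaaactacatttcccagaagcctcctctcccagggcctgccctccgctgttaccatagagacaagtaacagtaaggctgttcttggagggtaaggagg
Ccdc153: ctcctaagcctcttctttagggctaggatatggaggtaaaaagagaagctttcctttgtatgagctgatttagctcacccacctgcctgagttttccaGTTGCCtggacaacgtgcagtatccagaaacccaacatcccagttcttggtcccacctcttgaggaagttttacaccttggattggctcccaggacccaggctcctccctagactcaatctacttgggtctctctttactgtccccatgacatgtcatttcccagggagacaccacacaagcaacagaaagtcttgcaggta
Dynlrb2: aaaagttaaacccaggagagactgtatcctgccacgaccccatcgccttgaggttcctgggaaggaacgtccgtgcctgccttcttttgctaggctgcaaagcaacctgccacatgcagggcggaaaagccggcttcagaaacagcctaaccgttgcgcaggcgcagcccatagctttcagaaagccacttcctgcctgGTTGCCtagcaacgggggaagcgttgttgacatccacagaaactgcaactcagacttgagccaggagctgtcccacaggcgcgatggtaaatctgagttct
Hydin: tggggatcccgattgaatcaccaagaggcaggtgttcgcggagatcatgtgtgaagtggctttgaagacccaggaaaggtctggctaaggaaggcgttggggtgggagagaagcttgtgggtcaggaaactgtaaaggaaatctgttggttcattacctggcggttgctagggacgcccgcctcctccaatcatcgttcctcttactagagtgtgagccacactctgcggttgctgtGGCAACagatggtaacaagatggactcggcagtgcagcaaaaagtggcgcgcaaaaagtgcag
The half-site began 152 bases before the start of Ccdc153, 51 bases before that of Dynlrb2 and 13 bases before that of Hydin. A match of letters is a description and not a binding site. The searches took exact letters, so sequences that differ in a base were not counted, as with gttacc in the Drc7 promoter.

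In the hippocampus the member genes were at their highest in night libraries. Drc7, a subunit of the nexin-dynein regulatory complex that links neighbouring microtubule doublets, is the gene on which the set was chosen. Its level in the 16 night libraries was 0.117 CPM at the lowest, 12.3 CPM at the median and 21.7 CPM at the highest, and in the 16 day libraries it was 0, 1.41 and 4.31 CPM. The lowest night value was that of Ctr0 replicate 4, and the other 15 night libraries, from 4.91 CPM upward, lay above all 16 day libraries. The mean was 11.7 ± 5.74 CPM by night and 1.51 ± 1.41 CPM by day (SD, n = 16 each), and the fitted log2 fold change of day over night was -2.91 ± 0.42 (SE). Drc7 spans chr8:95055103-95078141 on the plus strand in GENCODE M21 and has 2.988 kb of exon.

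Foxj1, the regulator itself, had the same order of sets. Its night libraries ran from 0.663 through a median of 5.05 to 9.06 CPM and its day libraries from 0.225 through 0.951 to 2.29 CPM. Of the night libraries, 13 were above the highest day library, and the lowest of the night libraries was again Ctr0 replicate 4. The log2 fold change was -2.25 ± 0.30 (SE, n = 16 and 16). Foxj1 lies at chr11:116330704-116335399 on the minus strand.

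Structural members of the axoneme followed at lower levels. Hydin, a giant protein of the central pair apparatus, ran from 0.273 through 2.18 to 4.92 CPM by night and from 0 through 0.506 to 1.42 CPM by day, a log2 fold change of -1.94 ± 0.29 (SE). Rsph1, a radial spoke head protein, ran from 0.195 through 1.09 to 1.77 CPM by night and from 0 through 0.222 to 0.763 CPM by day, a log2 fold change of -1.96 ± 0.34. In both genes the ranges of night and day overlapped, with 13 and 11 night libraries above the highest day library. Hydin overlaps the antisense gene Gm26832 by 237 exonic bases, and the strand setting of the counting is not stated.

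Dnah9 and Cfap43 had the smallest fold changes of the members that passed the filter on low counts. Dnah9, a heavy chain of the outer dynein arm, ran from 13.6 through 24.7 to 62.6 CPM by night and from 1.85 through 11.1 to 30.1 CPM by day, with 4 night libraries above the highest day library and a log2 fold change of -1.04 ± 0.27 (SE). Cfap43, which tethers an inner dynein to the microtubules, ran from 5.38 through 7.79 to 11.1 CPM by night and from 4.49 through 5.82 to 8.50 CPM by day, a log2 fold change of -0.41 ± 0.10. The Cfap43 model overlaps Itprip, a gene on the same strand that is not in the count table, by 164 exonic bases, so how reads of the shared stretch were assigned is not known and the values of Cfap43 are uncertain. Dnah9 overlaps the opposite-strand gene Gm12296 by 495 exonic bases.

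The other 4 members were near the limit of counting. Dynlrb2, a dynein light chain of the roadblock family, had 142 counts over the 16 night and 13 over the 16 day libraries of the hippocampus, and Spag17, a protein of the central pair, had 85 and 19. Ccdc153 had 63 and 9 counts and Tmem212 had 30 and 5. A library floor of 3 counts corresponded to 0.031 to 0.316 CPM, which covers counting error only. Day values of these 4 were mostly at or under that floor, with at most 4 counts for Dynlrb2, 5 for Spag17, 2 for Ccdc153 and 1 for Tmem212 in any day library. Spag17 overlaps Wdr3 and Spag17os on the opposite strand by 820 and 516 exonic bases.

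**Figure D1:**
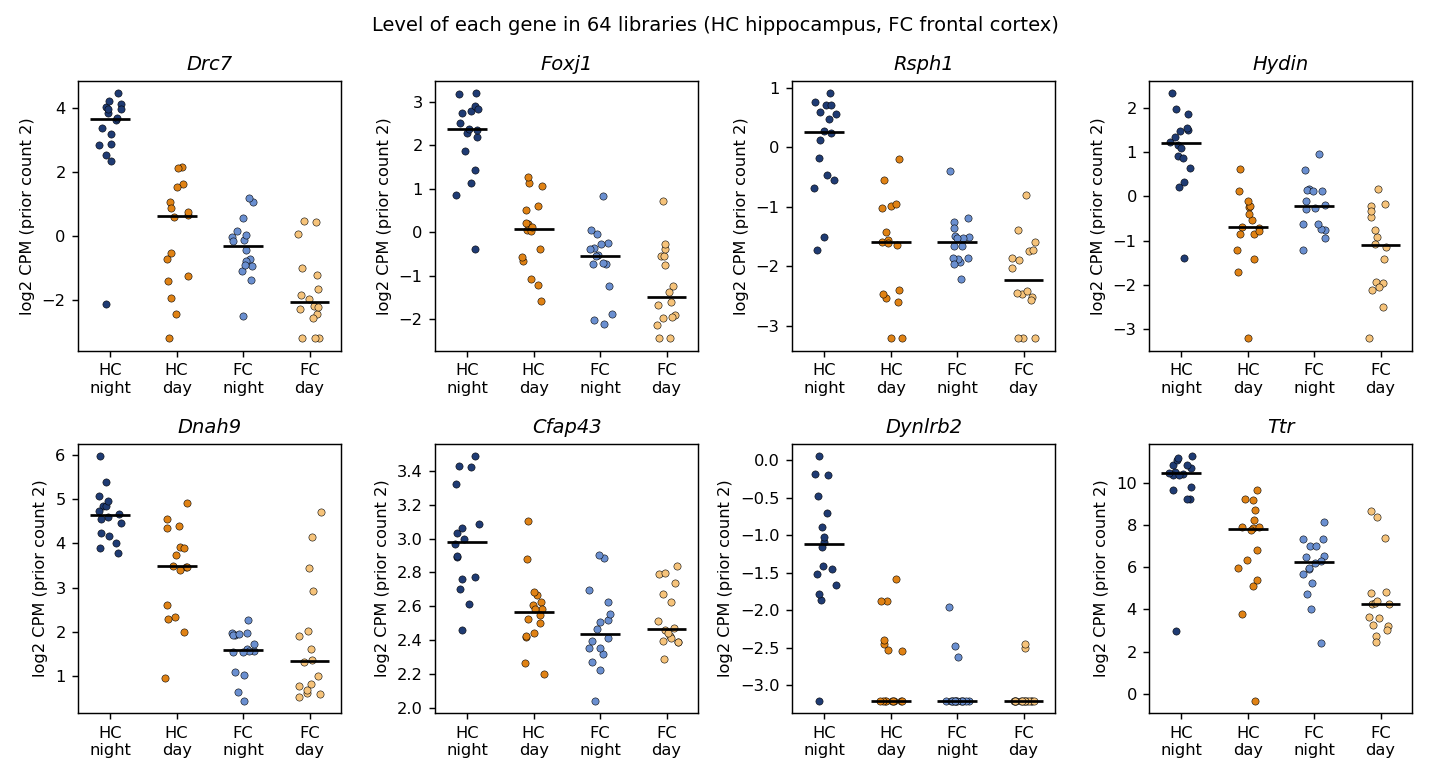
Level of 7 motile cilia genes and Ttr in each library, as log2 CPM with a prior count of 2. Each point is 1 library, the 4 columns of a panel are hippocampus (HC) and frontal cortex (FC) by night and by day with 16 libraries each, and the black line is the median. The lone low point of hippocampal night in Drc7, Foxj1, Hydin and Ttr is Ctr0 replicate 4, which is not low in Dnah9, and points on the bottom line of a panel are libraries at 0 counts.

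Compared per kilobase of exon, the order of the members in hippocampal night was Drc7 at a mean of 3.91 CPM per kb, Foxj1 at 1.94, Dnah9 at 1.68, Cfap43 at 1.14, Rsph1 at 0.753, Dynlrb2 at 0.723 and Hydin at 0.127 CPM per kb. Ccdc153, Tmem212 and Spag17 were under 0.1 CPM per kb. Ttr in the same libraries was at 1163 CPM per kb. In frontal cortex day libraries the order began instead with Cfap43 at 0.814 and Dnah9 at 0.345 CPM per kb, and Drc7 was at 0.106 CPM per kb. Dnah9 and Cfap43 together held a median of 60.4% of the summed CPM of the 10 members in hippocampal night and 88.6% in frontal cortex day libraries.

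Of the 10 members, 6 passed the filter on low counts in the hippocampus, and all 6 were past the threshold of an adjusted p of 0.05 in the direction of lower day levels, where 18.8% of the 15527 genes tested were called lower and 23.4% higher. Nothing is read from this count, since the members were chosen on that contrast. The split over all genes moved with the scaling: 2913 genes were lower and 3637 higher by day with TMM, 3475 and 3127 with DESeq2, and 4023 and 265 with library totals alone, which moved the median log2 fold change of all genes from 0.02 to -0.14. In the 64-library fit the filter's minimum was 0.628 CPM before TMM scaling, which Drc7, Foxj1, Hydin and Rsph1 passed in 15, 15, 15 and 13 of the 16 hippocampal night libraries and in 3, 4, 3 and 0 of the 16 frontal cortex day libraries, and Dnah9 and Cfap43 in all 64. Without the night library that stood apart the log2 fold change was -3.00 for Drc7, -2.33 for Foxj1, -1.07 for Dnah9 and -0.44 for Cfap43. Markers of other cells changed too. The 18 choroid plexus genes were past the threshold and lower by day, with a median log2 fold change of -2.59. So were 7 of 8 oligodendrocyte, 6 of 8 astrocyte, 6 of 8 endothelial and 2 of 8 neuronal markers. Higher by day were 7 of 8 microglial and 7 of 7 border macrophage markers, and 1 astrocyte marker, Slc1a3 (0.40 ± 0.08). With the log2 level of Ttr as a covariate the log2 fold change was -0.67 ± 0.22 (SE) for Drc7, -1.004 ± 0.22 for Foxj1, -0.82 ± 0.27 for Hydin, -0.71 ± 0.34 for Rsph1, -0.74 ± 0.31 for Dnah9 and -0.25 ± 0.11 for Cfap43.

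In the frontal cortex the same genes were measured at much lower levels, and 2 of the 10 passed the filter on low counts. Dnah9 ran from 1.25 through 2.90 to 4.75 CPM in the 16 night libraries and from 1.33 through 2.45 to 26.0 CPM in the 16 day libraries. The 4 highest day libraries, at 7.51, 10.8, 17.5 and 26.0 CPM, lay above the range of night, and the other 12 lay below its highest value. The log2 fold change of day over night was 0.90 ± 0.38 (SE), which missed the threshold in edgeR's quasi-likelihood test (adjusted p = 0.054). It was 0.47 (adjusted p = 0.249) without Frontal cortex Day Ctr0 replicate 1, the library at 26.0 CPM, and DESeq2 put it past the threshold (0.90, adjusted p = 0.046). Cfap43 had medians of 5.31 CPM by night and 5.41 CPM by day and a log2 fold change of 0.06 ± 0.08 (adjusted p = 0.554 in edgeR), and its sign was negative when libraries were scaled by their totals alone (-0.01). Neither member was called in the region, where 21.3% of 14975 genes were called lower by day and 20.6% higher. With library totals alone 3405 genes were lower and 656 higher, against 3183 and 3083.

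Drc7 was lower by day in the frontal cortex too. It ran from 0.069 through 0.703 to 2.16 CPM by night and from 0 through 0.129 to 1.25 CPM by day, with 213 counts in the night and 70 in the day libraries. The mean log2 CPM was lower by 1.37 (difference -1.37) by day in a permutation test over 16 and 16 libraries (2-sided, 100000 resamples, p = 0.0015, adjusted p = 0.00225 over the 3 members tested this way). Hydin, with 212 counts by night and 83 by day, differed by -1.03 on the same scale (permutation p = 0.00084, adjusted p = 0.00225). Foxj1, with 151 and 83 counts, differed by -0.59 (permutation p = 0.0586, adjusted p = 0.0586), and was past the threshold without Frontal cortex Day Cogn replicate 4 (difference -0.73, adjusted permutation p = 0.0151) or without Day Soci replicate 4 (difference -0.66, adjusted permutation p = 0.0384). These are 2 of the 3 day libraries rich in Ttr. They were left out after their values were seen, so the smaller p-values are no support for a difference in Foxj1. Whether Ttr bears on it was not tested. In an edgeR fit with no filter on counts, which tested all 10 members, Drc7 (log2 fold change -1.31 ± 0.44, adjusted p = 0.0308) and Hydin (-1.04 ± 0.31, adjusted p = 0.0121) were called lower by day, beside 11.8% of 30464 genes.

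The remaining members had too few counts in the frontal cortex for the permutation test. Rsph1 had 63 counts by night and 30 by day, 12 of the 32 libraries held more than 3 counts, and the fit with no filter gave a log2 fold change of -0.76 ± 0.33 (adjusted p = 0.103 in edgeR). Ccdc153, Tmem212, Dynlrb2 and Spag17 had between 1 and 9 counts over the 16 libraries of either phase, and no library held more than 3 counts. A day-night difference in these 4 was not detectable at this depth. Ttr itself ran from 5.27 through 75.4 to 279 CPM by night and from 5.27 through 18.8 to 408 CPM by day, with a log2 fold change of -0.40 ± 0.58 (adjusted p = 0.602 in edgeR) that became -1.58 (adjusted p = 0.00818) without the libraries of replicate 4. Of the 18 choroid plexus genes 5 passed the filter in this region, and 0 were called. Lower by day were 7 of 8 neuronal, 6 of 8 astrocyte, 4 of 8 oligodendrocyte and 1 of 8 endothelial markers. Higher by day were 6 of 7 border macrophage and 5 of 8 microglial markers. The part of these markers in the frontal cortex values of the members was not tested. In the fit with Ttr as a covariate Dnah9 was higher by day (1.14 ± 0.38, adjusted p = 0.0192 in edgeR). That fit held Frontal cortex Day Ctr0 replicate 1, with Dnah9 at 26.0 CPM and Ttr at 9.11 CPM, and was not repeated without it.

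**Figure D2:**
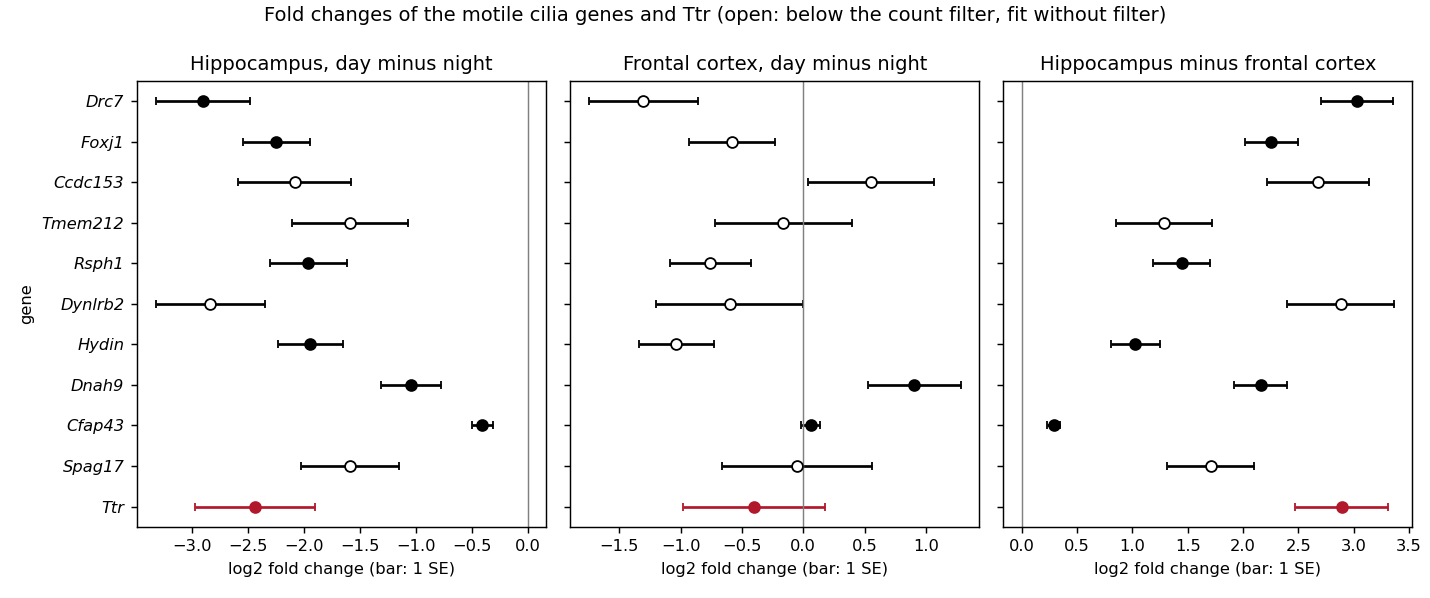
Log2 fold change with 1 SE for each of the 10 members and for Ttr (red) in 3 comparisons. Filled points passed the filter on counts and open points come from the fit without it. In the left panel the members lie between -2.91 for Drc7 and -0.41 for Cfap43, in the middle panel Dnah9 lies at 0.90 on the other side of 0 from Drc7 at -1.31, and in the right panel members lie above 0.

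Between the regions, averaged over day and night, the members were higher in the hippocampus. Drc7 had a log2 fold change of hippocampus over frontal cortex of 3.03 ± 0.33 (SE, adjusted p = 1.36e-10 in edgeR, 32 and 32 libraries), Foxj1 of 2.25 ± 0.24 (adjusted p = 6.64e-11), Dnah9 of 2.16 ± 0.24 (adjusted p = 2.23e-10), Rsph1 of 1.45 ± 0.26 (adjusted p = 1.91e-05), Hydin of 1.03 ± 0.22 (adjusted p = 0.000379) and Cfap43 of 0.29 ± 0.06 (adjusted p = 0.000338). The 6 members that passed the filter were called higher, where 10.4% of the 16069 genes tested were called higher and 6.17% lower in the hippocampus. That split was 1675 genes higher and 992 lower, against 855 and 1696 with library totals alone (median of all genes -0.11 in place of 0.00) and 1419 and 1722 with the genes over 1% of counts left out. The filter admits genes that are high in hippocampal night libraries alone, as it did Rsph1. Neither the count nor the p-value of Rsph1 is therefore support for a difference. In the fit with no filter 9 of all 10 members were called higher, beside 5.39% of 33247 genes, and Tmem212 was not (1.29 ± 0.44, adjusted p = 0.0776). The hippocampal libraries of this comparison are those in which Drc7 was first seen to fall, so the p-value of Drc7 comes from libraries used in the choice of the set. Those of the other members come from the same libraries and are not independent of that choice. The average also includes hippocampal night, where the members were at their highest.

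By day alone the regions were closer for most members. Mean levels in hippocampal and frontal cortex day libraries were 1.51 ± 1.41 and 0.318 ± 0.426 CPM for Drc7, 1.04 ± 0.633 and 0.396 ± 0.377 CPM for Foxj1, 0.569 ± 0.334 and 0.396 ± 0.300 CPM for Hydin and 5.88 ± 0.957 and 5.75 ± 0.734 CPM for Cfap43 (SD, n = 16 each). For Dnah9 they were 12.6 ± 7.85 and 5.51 ± 7.01 CPM. Ttr moved with region as well, with a log2 fold change of 2.89 ± 0.42 (adjusted p = 3.58e-07), and the 18 choroid plexus genes were called higher in the hippocampus with a median of 2.89. With Ttr as a covariate the region difference was 0.48 ± 0.21 for Drc7 (adjusted p = 0.21), 0.31 ± 0.30 for Hydin (adjusted p = 0.632), 0.32 ± 0.30 for Rsph1 (adjusted p = 0.612) and 0.12 ± 0.07 for Cfap43 (adjusted p = 0.364), and Foxj1 (0.99 ± 0.24, adjusted p = 0.0114) and Dnah9 (1.74 ± 0.27, adjusted p = 2.16e-05) were still called. Scaling by library totals alone also took Cfap43 out of the calls (0.17, adjusted p = 0.0982).

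The day-night change was compared between the regions as a description, since it contains the contrast on which the set was chosen. The change was more negative in the hippocampus by -2 ± 0.47 (log2, SE) for Dnah9, -1.70 ± 0.50 for Foxj1, -1.64 ± 0.72 for Drc7, -1.25 ± 0.55 for Rsph1, -0.94 ± 0.45 for Hydin and -0.51 ± 0.12 for Cfap43, and by -2.07 ± 0.80 for Ttr. Dnah9 and Cfap43 were the 2 members past the threshold, beside 0.859% of 16069 genes called in that direction, and nothing is read from that count.

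Across the 4 conditions the members showed no difference that passed the threshold. The mean level of Drc7 in the 4 hippocampal night groups was 9.43 ± 4.55 CPM in Soci, 12.7 ± 4.22 CPM in Cogn, 11.01 ± 8.83 CPM in Ctr0 and 13.5 ± 5.92 CPM in Ctr1 (SD, n = 4 each), so each group lay within the spread of the others. The other 12 groups had means between 0.043 CPM (Frontal cortex Day Ctr0) and 2.25 CPM (Hippocampus Day Ctr0). Ttr had its lowest and highest group means in the same groups as Drc7 in 3 of the 4 sets of libraries: hippocampal night (1100 CPM in Soci and 1808 CPM in Ctr1), hippocampal day (183 CPM in Ctr1 and 410 CPM in Ctr0) and frontal cortex night (32.9 CPM in Ctr0 and 173 CPM in Ctr1).

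Foxj1 and Hydin also had their 4 highest group means in hippocampal night, from 4.13 to 5.59 CPM and from 1.77 to 2.54 CPM. Dnah9 had group means from 20.2 ± 8.96 CPM (Soci) to 32.8 ± 20.7 CPM (Cogn) in hippocampal night and from 8.72 ± 4.77 CPM (Ctr0) to 19.3 ± 9.96 CPM (Ctr1) in hippocampal day, and its highest frontal cortex mean, 7.56 ± 12.3 CPM in Day Ctr0, came from values of 26.0, 1.44, 1.499 and 1.33 CPM. Cfap43 ranged over the 16 groups from 5.02 ± 0.217 to 8.68 ± 2.27 CPM.

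In edgeR's test of the 4 conditions, 0 of 7 members tested in the hippocampus and 0 of 5 in the frontal cortex were past the threshold, as were 0% of all 16826 and 0% of all 16238 genes. In the hippocampus 3814 genes were past it with library totals alone and 328 without replicate 1, with 0 members among them in either case. At an unadjusted p under 0.05 there were 1090 genes in the hippocampus, none of them a member, and 1094 in the frontal cortex. Drc7 and Foxj1 were among the latter, with an edgeR adjusted p of 0.72 for both. In the frontal cortex Drc7 was highest in Night Ctr1, with values of 1.96, 0.787, 0.985 and 2.16 CPM, and lowest in Day Ctr0, with 0.111, 0, 0 and 0.060 CPM. Whether the day-night change depended on condition was tested for the same members, and 0 were called, beside 0% of the genes in the hippocampus (695 at an unadjusted p under 0.05) and 0.00616%, which is 1 gene, in the frontal cortex (603).

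**Figure D3:**
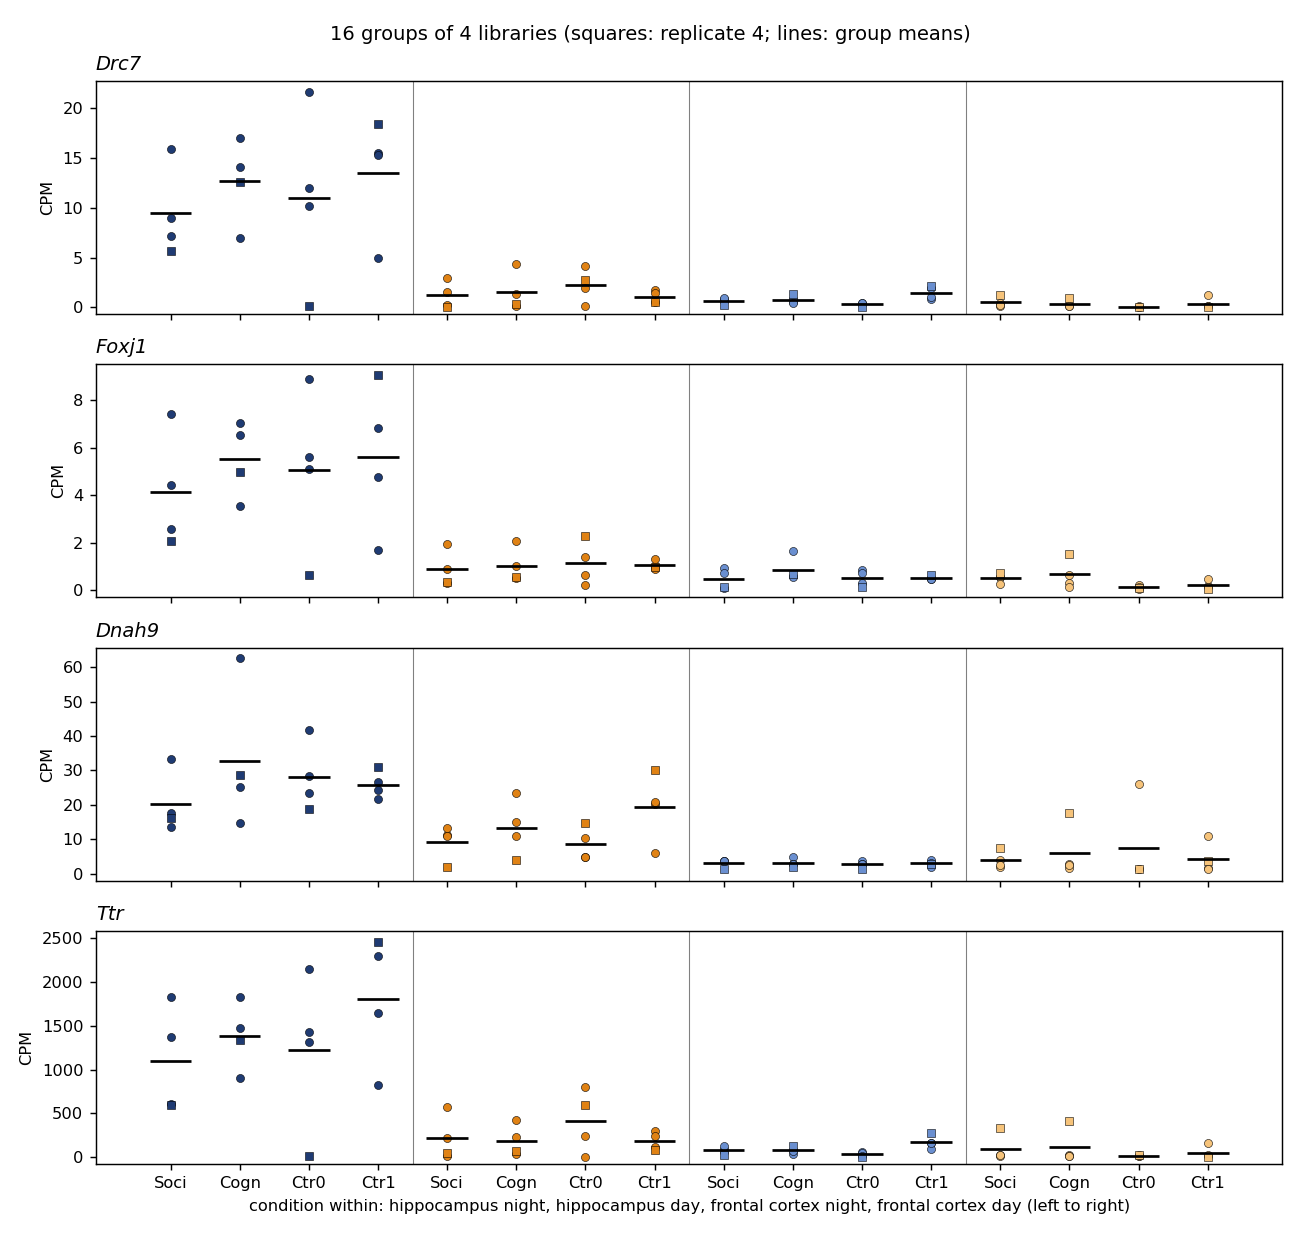
CPM of Drc7, Foxj1, Dnah9 and Ttr in the 16 groups of 4 libraries, on linear axes. Columns are the 4 conditions within hippocampal night, hippocampal day, frontal cortex night and frontal cortex day from left to right, squares are replicate 4 and black lines are group means. The 4 hippocampal night groups have the highest means in each panel, and the square at the bottom of hippocampal night Ctr0 (0.117 CPM for Drc7, 7.84 CPM for Ttr) is the library that stood apart.

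Ttr was compared with each member by library within the 4 sets of 16 libraries, so that neither region nor phase entered. Of 22 pairs of a member and a set with enough counts, 10 had a Pearson correlation past an adjusted permutation p of 0.05, 6 of 8 in hippocampal night, 3 of 5 in hippocampal day, 1 of 6 in frontal cortex night and 0 of 3 in frontal cortex day, and Spearman's rho also gave 10. Libraries share their depth and scale in both values of a pair, and 1 library far from the others weighs on r in hippocampal night.

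Drc7 followed Ttr in the 3 sets in which it had enough counts. In hippocampal night r was 0.983 and rho 0.900 (permutation p = 1e-05 for both, the smallest that the resamples can give, adjusted p = 5.5e-05 and 7.33e-05, n = 16), in hippocampal day r was 0.839 and rho 0.947 (permutation p = 1e-05 for both), and in frontal cortex night r was 0.904 and rho 0.900 (permutation p = 1e-05 for both). Without the 2 libraries farthest from the median of Ttr, r was 0.880, 0.956 and 0.889, and within replicates 1 to 3 it was 0.873, 0.908 and 0.725 (n = 12). In frontal cortex day, 4 of 16 libraries held more than 3 Drc7 counts and no correlation was computed. Per 1000 counts of Ttr, Drc7 had medians of 8.58 counts in hippocampal night, 5.81 in hippocampal day, 9.52 in frontal cortex night and 6.68 in frontal cortex day libraries, while the median level of Ttr differed between these sets from 1399 to 18.8 CPM. By library this ratio ran from 5.99 to 14.9, 0 to 111, 5.62 to 26.3 and 0 to 32.5 in the same order.

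Foxj1 followed Ttr in the hippocampus. There r was 0.864 and rho 0.856 by night (permutation p = 2e-05 and 6e-05, n = 16) and 0.861 and 0.862 by day (permutation p = 3e-05 and 6e-05), with 0.851 and 0.816 for r without the 2 farthest libraries. In frontal cortex night r was 0.372 and rho 0.153 (permutation p = 0.156 and 0.571, adjusted p = 0.214 and 0.623), and r was -0.19 within replicates 1 to 3. Foxj1 had medians of 3.89, 4.69, 6.25 and 12.5 counts per 1000 counts of Ttr in hippocampal night, hippocampal day, frontal cortex night and frontal cortex day.

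Rsph1, Dynlrb2 and Hydin followed Ttr in hippocampal night, with r of 0.753, 0.823 and 0.866 and rho of 0.903, 0.868 and 0.729 (adjusted permutation p at most 0.00534). Hydin did so by day as well (r = 0.767, permutation p = 0.00248, adjusted p = 0.00546; rho = 0.609, permutation p = 0.0141), but r was 0.321 without the 2 farthest libraries, so that relation rested on them. In the frontal cortex Hydin had r of 0.052 by night (permutation p = 0.85) and -0.28 by day (permutation p = 0.302). Its medians per 1000 counts of Ttr were 1.67 and 2.69 in the hippocampus and 8.76 and 19.2 in the frontal cortex, by night and by day.

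For Dnah9 no correlation with Ttr passed the threshold. It had r of 0.270, 0.329, 0.435 and 0.523 in hippocampal night, hippocampal day, frontal cortex night and frontal cortex day (adjusted permutation p = 0.349, 0.278, 0.144 and 0.0652), and in frontal cortex day rho was 0.144. Cfap43 had r of 0.648 in hippocampal night (permutation p = 7e-05, adjusted p = 0.000192, and 0.0512 within replicates 1 to 3) and r between 0.209 and 0.478 in the other 3 sets (adjusted permutation p between 0.103 and 0.45). Spag17, tested in hippocampal night alone, had r of 0.431 (adjusted permutation p = 0.0794). Whether these correlations differ between members was not tested.

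Values of 3 libraries are given side by side, chosen after their values were seen. In Hippocampus Night Ctr0 replicate 4, where Ttr was at 7.84 CPM, Drc7 was at 0.117, Foxj1 at 0.663, Rsph1 at 0.195 and Hydin at 0.273 CPM, each the lowest of the gene's 16 night values. Cfap43 was also at its lowest night value, 5.38 CPM, and Dnah9 was at 18.8 CPM, inside the range of the other night libraries. In Frontal cortex Day Ctr0 replicate 1, Dnah9 was at 26.0 CPM with Ttr at 9.11 CPM and Drc7 at 0.111 CPM. In Frontal cortex Day Cogn replicate 4, Dnah9 was at 17.5 CPM with Ttr at 408 CPM and Drc7 at 0.929 CPM.

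**Figure D4:**
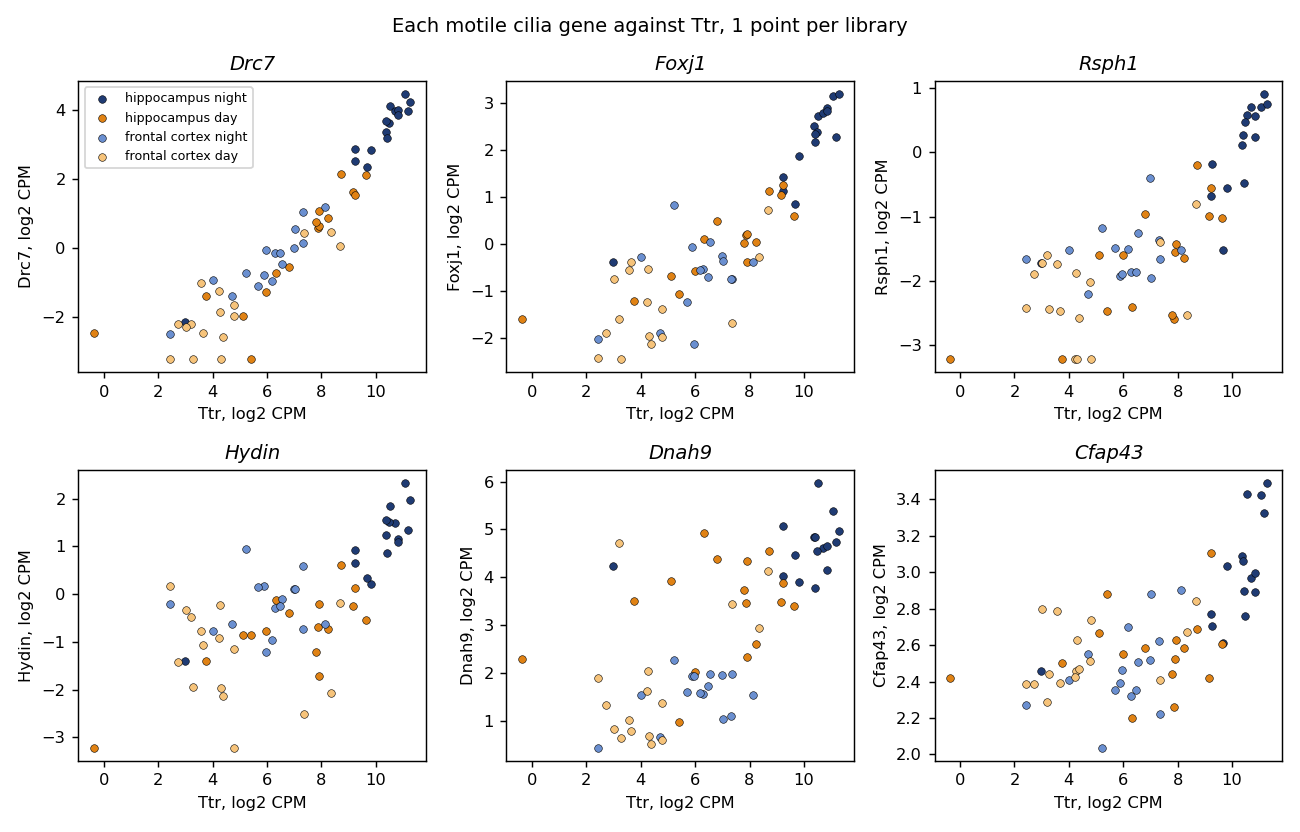
Log2 CPM of 6 motile cilia genes against log2 CPM of Ttr, 1 point per library, 64 libraries in 4 colours for the region and phase. Drc7 rises with Ttr, with log2 slopes of 0.78 in hippocampal night, 0.55 in hippocampal day and 0.59 in frontal cortex night. Foxj1 and Rsph1 spread more at low Ttr, and Dnah9 has high points at low Ttr, among them the library at 26.0 CPM.

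Likeness between genes was measured over all 64 libraries as the Pearson correlation of log2 CPM after each of the 16 groups was centred on its mean. The 5 genes most like Drc7 were Clic6 (0.924), Enpp2 (0.923), Slc13a4 (0.922), Kl (0.920) and Lbp (0.919), and Ttr had 0.888. Clic6 and Kl are on the choroid plexus list, and Kl encodes Klotho. For Foxj1 they were Sulf1 (0.807), Lbp (0.804), Igfbp2 (0.803), Slc13a4 (0.796) and Htr2c (0.786), a serotonin receptor, and Ttr had 0.715. Among the members, Drc7 had 0.740 with Foxj1, 0.626 with Rsph1, 0.453 with Hydin, 0.485 with Dnah9 and 0.337 with Cfap43.

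The sum of the 10 members was carried by Dnah9, with which it had a likeness of 0.903, against 0.671 for Drc7 and 0.301 for Cfap43. The 10 genes most like that sum were Atp2b3 (0.930), Lamb1 (0.892), Myo5b (0.883), Slc29a4 (0.879), Dsp (0.872), Trpm3 (0.853), Galnt17 (0.847), Pkp2 (0.843), Fam160a1 (0.843) and Itga7 (0.840). None of these 10 is on the cilia lists or the choroid plexus list, and Dsp and Pkp2 encode desmosomal proteins. The likeness of Ttr to the sum was 0.574.

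The rest of the pathway was read from 9 lists of motile cilia genes by role, with 99 genes found in the table. In the hippocampus 57 of the 99 passed the filter, of which 40 were lower by day, 2 were higher and 15 did not pass the threshold, with a median log2 fold change of -0.90 beside 0.02 over all 15527 genes tested, of which 18.8% were lower and 23.4% higher. In the frontal cortex 36 passed, of which 12 were lower by day, 1 was higher and 23 did not pass, with a median of -0.30 beside -0.02 over all genes, of which 21.3% were lower and 20.6% higher. Between regions 30 of 57 were higher in the hippocampus and 0 lower, with a median of 0.37 beside 0.00 over all genes, of which 10.4% were higher and 6.17% lower. The filter can admit a gene through its hippocampal night libraries alone, so these counts describe the genes measured and not the lists as a whole. The lists follow the pathway of a set chosen on the hippocampal contrast. Their hippocampal day-night values and regional differences in change are therefore given below with no p-value.

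By role, the counts lower by day in the hippocampus were 4 of 6 multiciliation regulators, 6 of 7 outer dynein arm genes, 4 of 6 inner dynein arm genes, 4 of 6 genes of the nexin-dynein regulatory complex and ruler, 3 of 6 radial spoke genes, 6 of 7 central pair genes, 9 of 12 microtubule inner and tether proteins, 2 of 4 dynein arm assembly factors and 2 of 3 other ependymal markers, beside 18.8% of all genes tested. The lowest list median was -1.47 for the microtubule inner and tether proteins, and the highest was -0.30 for the assembly factors. The genes higher by day were Tekt2, a tektin (0.54 ± 0.16), and Cfap74 of the central pair (0.28 ± 0.11).

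Of the genes named because they had the 3 highest CPM values of their list, several changed little. Rfx3, an RFX factor, was at 36.1 CPM over the 64 libraries. Its log2 fold change was -0.16 ± 0.05 in the hippocampus, past the threshold, and 0.03 ± 0.05 (adjusted p = 0.602 in edgeR) in the frontal cortex. E2f4 and E2f5, cell cycle factors that also serve multiciliated cells, were at 24.2 and 5.47 CPM and had 0.04 ± 0.05 and 0.05 ± 0.07 in the hippocampus. Cfap74, one of the 2 genes higher by day, was at 77.6 CPM. Gas8, a subunit of the same complex as Drc7 at 12.7 CPM, had -0.09 ± 0.16. Spag1, an assembly factor at 7.43 CPM, had 0.28 ± 0.13 and did not pass the threshold. In the radial spoke list the 3 most abundant genes, Rsph10b, Rsph3a and Rsph3b, had -0.30 ± 0.13, 0.12 ± 0.12 and -0.14 ± 0.12 and did not pass the threshold.

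Other genes named by the same rule were lower by day in the hippocampus, and their frontal cortex values are given beside, with edgeR's adjusted p. The rule takes a mean over 64 libraries, which hippocampal night can raise. Dnah6, an inner arm heavy chain, had means of 7.77 CPM by night and 1.45 CPM by day in the hippocampus, a log2 fold change of -2.38 ± 0.29. In the frontal cortex its means were 1.03 and 0.765 CPM and its log2 fold change was -0.42 ± 0.23 (adjusted p = 0.144). Dnah2, of the same arm, had -0.81 ± 0.14 in the hippocampus and -0.40 ± 0.16 (adjusted p = 0.0432) in the frontal cortex. Cfap44, the partner of Cfap43 in the tether, had -1.88 ± 0.27 and -0.42 ± 0.27 (adjusted p = 0.216). Ccdc114, an outer arm docking protein, had -1.67 ± 0.23 and -0.30 ± 0.14 (adjusted p = 0.0908). Ccdc39, of the axonemal ruler, had -1.20 ± 0.20 and -0.60 ± 0.22 (adjusted p = 0.025).

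The difference between the regional changes contains the hippocampal contrast and is given as a description. Among the genes named by the same rule it was past the threshold for Dnah6 (-1.996 ± 0.40), Ccdc114 (-1.41 ± 0.28), Cfap44 (-1.496 ± 0.40) and Wdr78 (-0.54 ± 0.13). In all 7 of 57 were past it, beside 0.859% of 16069 genes called more negative in the hippocampus, and nothing is read from that count. Dnal1, an outer arm light chain, and Dnaaf3, an assembly factor, were lower by day in both regions, with -0.36 ± 0.09 and -0.65 ± 0.09 in the hippocampus and -0.70 ± 0.11 and -0.66 ± 0.11 in the frontal cortex. Drc1, a partner of Drc7, had -0.29 ± 0.23 in the hippocampus and -0.20 ± 0.20 in the frontal cortex (adjusted p = 0.442 in edgeR for the latter), and passed the threshold in neither. Cfap54 and Spef1 of the central pair had -0.93 ± 0.21 and -0.56 ± 0.11 in the hippocampus, both past the threshold. Of the other ependymal markers, Tppp3 had -0.44 ± 0.13 in the hippocampus and passed the threshold. Cdhr4 had -0.04 ± 0.19 and did not, and Riiad1 was below the filter in both regions.

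**Figure D5:**
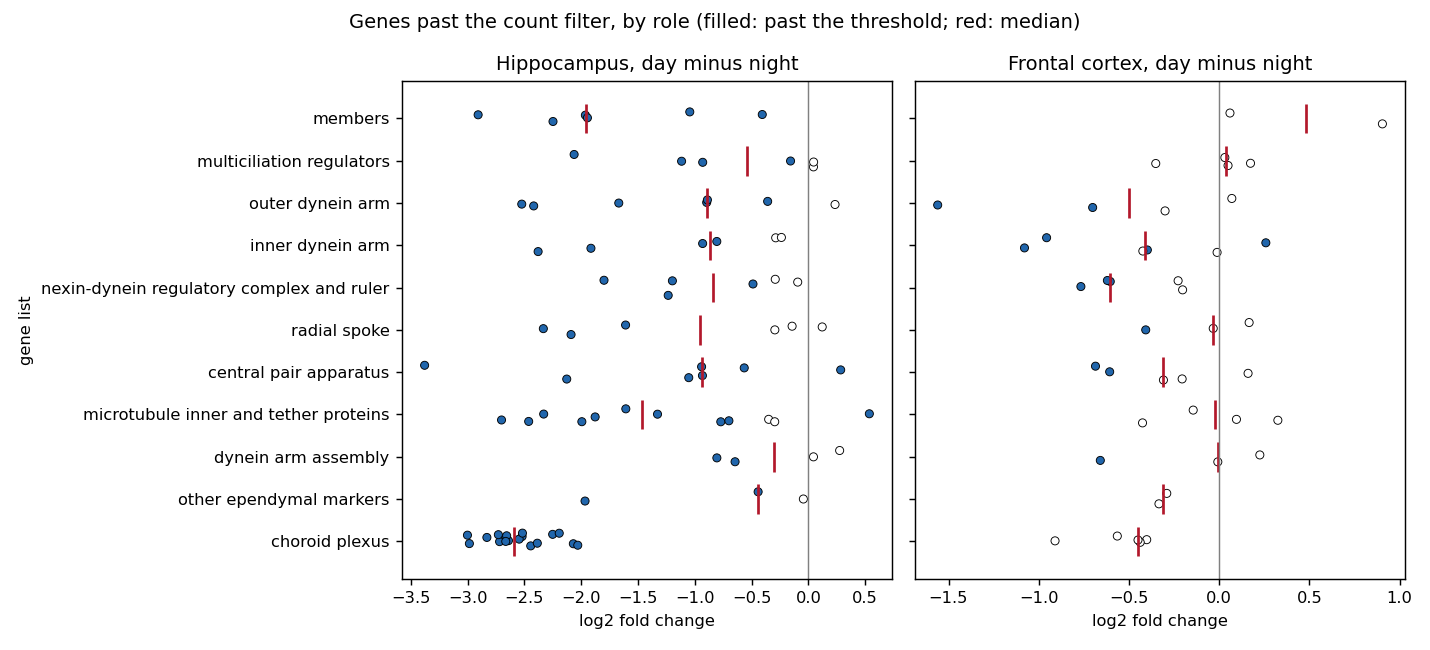
Log2 fold change of day over night for genes that passed the filter on counts, by role, in the hippocampus and the frontal cortex. Each point is 1 gene, filled where past an adjusted p of 0.05, and the red line is the list's median. In the hippocampus the 18 choroid plexus genes lie between -3.00 and -2.03, and the cilia lists spread from -3.38 to 0.54.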

How the data were processed

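Total RNA of CD11b-isolated microglia was sequenced in 64 libraries, 4 per region, phase and condition. The values the authors deposited are raw counts per gene, made after depletion of ribosomal RNA, with STAR 2.7.3a and featureCounts of Subread 2.0.0 on build GRCm38.p5. The methods name GENCODE vM12 for the gene lengths that featureCounts reported; the strand setting is not given in the sources used here. Of 49671 genes, 49326 were matched to GENCODE M21. From the counts, TMM scaling, filterByExpr and edgeR's quasi-likelihood test (version 4.0.16, R 4.3.3) were run over all genes, with Benjamini-Hochberg adjustment and a threshold of 0.05; DESeq2 1.42.0 was an alternative. The SE was taken as |log2 fold change|/√F. Day and night were compared over 16 and 16 libraries per region with conditions pooled, as in the study. One fit of 64 libraries gave the region difference and the difference between regional changes, and fits of 8 means per region tested the conditions. Log2 CPM used a prior count of 2. Permutation tests used 100000 resamples. Members and lists were chosen with earlier results of these data known. Named beside the 10 members and Ttr are the 3 genes of each list with the highest mean CPM and the genes most like the members by correlation; 1 gene that this rule names is not reported here. On simulated data 200 genes above 1 CPM were changed 2-fold. Of these, 192 were recovered for day against night in the hippocampus, 192 in the frontal cortex, 198 between regions and 176 for the regional difference. For the 4 conditions 172 were recovered in the hippocampus and 163 in the frontal cortex, and for dependence on condition 89 and 74. False calls ran from 1 to 13. Most members lie under 1 CPM in the frontal cortex, and changes at such levels were not simulated. Totals of 10.2 M to 84.5 M counts (M, 1000000) put 3 counts at 0.031 to 0.316 CPM. Replicate libraries were compared in 96 pairs by chi-square, which was at least 8.26 per degree of freedom, and none was a duplicate. Alternatives covered scaling, filters, the replicate number as a block, condition or Ttr as a term, and libraries left out; those without single libraries were chosen after seeing the data.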

Additional observations from a re-analysis of the deposited data

Results flagged for a closer look

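Over 112 groups of 4 libraries (7 genes in 16 groups), 14 held a library far from the other 3 by Dixon's criterion, where chance alone gives about 1 in 20, or 5.6. Several fell on the same libraries. Frontal cortex Day Cogn replicate 4 was high in Ttr (408 CPM against 6.47 to 18.6 CPM in the other 3), in Dnah9 (17.5 CPM against 1.62 to 2.95 CPM) and in Cfap43 (7.05 CPM against 5.13 to 5.27 CPM). Frontal cortex Day Ctr1 replicate 1 was high in Ttr (165 CPM against 5.27 to 27.7 CPM) and in Drc7 (1.23 CPM against 0 to 0.147 CPM), and Day Soci replicate 4 was high in Ttr (328 CPM against 11.8 to 27.3 CPM). Frontal cortex Day Ctr0 replicate 1 was high in Dnah9 (26 CPM against 1.33 to 1.5 CPM) and in Hydin (0.611 CPM against 0.121 to 0.152 CPM), with Ttr at 9.11 CPM.

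In frontal cortex night, Foxj1 was high in Cogn replicate 1 (1.67 CPM against 0.572 to 0.674 CPM) and in Ctr1 replicate 4 (0.659 CPM against 0.49 to 0.506 CPM), and Dnah9 was low in Soci replicate 4 (1.47 CPM against 3.7 to 3.81 CPM). In the hippocampus, Rsph1 was low in Night Ctr1 replicate 3 (0.242 CPM against 1.52 to 1.77 CPM), Hydin was high in Day Cogn replicate 3 (1.42 CPM against 0.446 to 0.515 CPM) and Cfap43 was high in Day Soci replicate 4 (7.24 CPM against 5.24 to 5.55 CPM).

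The day-night change of Dnah9 and Cfap43 was picked out by its difference between the regions, which was -2 for Dnah9 (log2, hippocampus minus frontal cortex) and -0.508 for Cfap43. Without Frontal cortex Day Ctr0 replicate 1 the value for Dnah9 was -1.56, and without Day Cogn replicate 4 that for Cfap43 was -0.47. These are a description with no p, because the hippocampal side of this contrast chose the genes.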

How the results depend on the processing

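Member counts in the hippocampus by day and night were 3 with Ttr as a covariate, 10 with no count filter and 0 in replicate 4 alone, against 6. The wider lists had 25, 64 and 0 under the same settings, against 42. Over all genes, 2123 of 15527 were lower and 2728 higher with the covariate, against 2913 and 3637. With no filter 3833 of 31206 were lower and 2810 higher, and in replicate 4 alone 36 and 82 of 16029. In the frontal cortex members called were 1 with DESeq2, 1 with Ttr as a covariate and 2 with no count filter, against 0, and the wider lists had 0 in replicate 4 alone, against 13. Over all genes there, 3143 of 14975 were lower and 3311 higher with DESeq2, and 2855 and 2725 with the covariate, against 3183 and 3083. With no filter 3597 of 30464 were lower and 2827 higher, and replicate 4 alone called 0 of 15115. Between regions the counts were 2 with the Ttr covariate and 0 in replicate 4 alone for members, against 6, and 4, 0 and, at a mean of at least 1 CPM, 14 for the wider lists, against 30. Of 16069 genes, 368 were higher and 151 lower with the covariate, against 1675 and 992. Replicate 4 alone called 0 of 15911, and at that mean 1279 of 14342 were higher and 1357 lower. For the difference between regional changes they were 0 with the covariate and 0 in replicate 4 alone for members, against 2, 1 without Frontal cortex Day Cogn replicate 4 and 1 without Day Ctr0 replicate 1, and 4, 0 and, at a mean of at least 1 CPM, 4 for the wider lists, against 7. Over all genes, 58 of 16069 were more negative in the hippocampus with the covariate and 97 of 14342 at that mean, against 138. Without those 2 libraries in turn they were 71 and 88 of 16131, and replicate 4 alone called 0 of 15911. In the 4 conditions of the hippocampus, scaling by library totals alone called 2 genes of the wider lists, against 0, beside 3814 of all 16826 genes. Of members below the count filter, 0 were called in replicate 4 alone, against 2. Replicate 4 alone has 4 libraries per set, which limits what it can call. For the other settings the cause was not tested. The calls over all genes moved as well, so these counts are not read as results about the members.

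Without 1 replicate number at a time, member counts ranged from 4 to 6 in the hippocampus, 0 to 1 in the frontal cortex, 5 to 6 between regions and 0 to 3 for the regional difference, and those of the wider lists from 26 to 42 (45 without Hippocampus Night Ctr0 replicate 4 alone), 6 to 17, 20 to 29 and 0 to 10. Over all genes, those lower by day then ranged from 2306 to 3893 in the hippocampus and from 1997 to 3181 in the frontal cortex. Genes higher in the hippocampus ranged from 624 to 2199, and those with a more negative change there from 8 to 198. Reversed values were those of Cfap43 in the frontal cortex with library totals alone (-0.014) and in replicate 4 alone (-0.080), Ttr there in replicate 4 alone (0.79), Foxj1 there in replicate 4 alone (0.14), and r with Ttr in frontal cortex night for Foxj1 (-0.19) and Dnah9 (-0.11) and in frontal cortex day for Cfap43 (-0.064) within replicates 1 to 3, and for Hydin by night without the 2 farthest libraries (-0.079); none of these 8 was past the threshold in the reported fit. Among the other single values, 503 kept their direction and side of the threshold, 14 lost it, 10 gained it and 7 with no test moved by more than the replicate spread.

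Over 32 day and night pairs of the same replicate number the deviations correlated with a median of 0.020, from -0.50 to 0.52 (10 pairs over 0.1). Over 96 such pairs of different numbers the median was -0.023, from -0.37 to 0.55 (30 pairs over 0.1). Across regions, 32 pairs of the same number had a median of -0.006, from -0.60 to 0.63 (12 pairs over 0.1). Pairs of different numbers were not compared across regions, so whether both regions came from the same mice is not settled. With the replicate number as a block, member counts were 6 in the hippocampus, 0 in the frontal cortex, 6 between regions and 2 for the regional difference. Over all genes, 2834 of 15527 were then lower by day in the hippocampus and 3347 of 14975 in the frontal cortex. Of 16069 genes, 1911 were higher in the hippocampus and 132 had a more negative change there. Frontal cortex totals of 10.2 M to 26.3 M counts left 4 members under 10 counts per set in the frontal cortex, so no difference was detectable there.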
